A study of Rattus norvegicus with 6 samples.

Results

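The Frizzled receptors are the cell-surface receptors for secreted Wnt proteins, and in rats the family is encoded by 10 genes, Fzd1 to Fzd10. The genes were taken by name, through the single gene symbol that the platform annotation gives each probe set, and 8 of the 10 were measured among 17245 genes with such a symbol. Fzd3 and Fzd7 were not analysed here. Each measured member had 1 probe set. The members were listed by family name, and the list was drawn up with earlier results of these data known.

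Expression was compared between 3 cultures of actively dividing neural stem and progenitor cells (A-NSPC) and 3 cultures of quiescent ones (Q-NSPC), each hybridised to its own Rat Gene 1.1 ST array (Affymetrix). The cells came from the adult rat hippocampus and grew as neurospheres, free-floating clusters, in N2 medium on DMEM/F-12. A-NSPC received FGF2, a mitogen, at 10 ng/ml for 4 days. Q-NSPC received the same FGF2 and in addition BMP4, a bone morphogenetic protein that halts division of these cells, at 50 ng/ml for 4 days. The labels call the 3 arrays of a group biological replicates, and they name no strain, age or genetic change, so both groups differ by BMP4 alone as far as they state. The comparison asks how each receptor gene differs between the quiescent and the dividing state in culture.

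A Frizzled protein spans the membrane repeatedly and holds a cysteine-rich domain outside the cell that binds the Wnt ligand. With the co-receptors LRP5 or LRP6 it recruits Dishevelled and stabilises β-catenin, the canonical branch, while other Frizzled complexes act through planar cell polarity or calcium signals. Surface levels are held down by the ubiquitin ligases ZNRF3 and RNF43 and restored by R-spondins. In the adult hippocampus, Wnt signals from astrocytes and from the progenitors themselves act on proliferation and neuronal differentiation. By sequence the family falls into the groups Fzd1, Fzd2 and Fzd7, then Fzd5 and Fzd8, then Fzd4, Fzd9 and Fzd10, and finally Fzd3 and Fzd6.

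Promoter windows of RefSeq on the rat build GRCr8, from 250 bases before to 50 after the start site, were at hand for 7 of the 10 genes (Fzd1, Fzd4, Fzd5, Fzd7, Fzd8, Fzd9 and Fzd10). For Fzd8 the window lies inside the annotated gene (chr17:62007849-62015485), so its start site is not the first base of that gene. In the others the start site is the first base of the annotated gene on its strand. Shown here are the windows of 3 genes that were higher in Q-NSPC, Fzd1 (chr4:30264824-30265123, plus strand), Fzd5 (chr9:73613990-73614289, minus strand) and Fzd8 (chr17:62009744-62010043, plus strand), so that their base composition and motif content can be read. Each runs 5′ to 3′ on the strand of the gene, and capitals mark the one searched motif that was found in any of these 3 windows, GGCGCC, a GC-rich element known to bind SMAD proteins, the carriers of the BMP signal.
Fzd1: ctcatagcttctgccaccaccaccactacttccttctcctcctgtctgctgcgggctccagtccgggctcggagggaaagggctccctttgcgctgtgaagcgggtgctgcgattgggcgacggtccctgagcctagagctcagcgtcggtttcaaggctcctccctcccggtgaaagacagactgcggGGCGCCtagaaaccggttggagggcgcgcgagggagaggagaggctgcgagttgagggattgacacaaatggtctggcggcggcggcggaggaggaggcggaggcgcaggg
Fzd5: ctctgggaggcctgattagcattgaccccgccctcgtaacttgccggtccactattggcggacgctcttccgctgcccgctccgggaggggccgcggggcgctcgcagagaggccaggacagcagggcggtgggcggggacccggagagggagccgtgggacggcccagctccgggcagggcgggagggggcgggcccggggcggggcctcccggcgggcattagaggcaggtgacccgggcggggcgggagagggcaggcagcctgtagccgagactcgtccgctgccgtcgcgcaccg
Fzd8: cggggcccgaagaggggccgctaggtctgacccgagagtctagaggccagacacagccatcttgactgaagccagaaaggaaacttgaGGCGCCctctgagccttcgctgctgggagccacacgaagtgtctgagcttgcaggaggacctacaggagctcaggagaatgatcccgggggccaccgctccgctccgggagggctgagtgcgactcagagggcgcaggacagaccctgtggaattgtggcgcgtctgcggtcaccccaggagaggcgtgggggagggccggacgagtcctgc
The GC content of the 7 windows lay between 64.3% and 75.7%, against a median of 51.7% and quartiles of 44.7% and 60.3% over 33469 promoter windows. Their ratio of observed to predicted CpG ranged from 0.61 to 0.90, where the median of all windows was 0.39 and the quartiles 0.19 and 0.73. Fzd8 and Fzd10, both at 0.61, lay below the upper quartile. The GC content of all 7 windows was above the upper quartile, in the genes called higher and in Fzd4, Fzd9 and Fzd10 alike.

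Of 4 motifs of 6 bases searched on both strands, GGCGCC was present in the windows of Fzd1, Fzd8 and Fzd10, and in 11.0% of all windows. Counted from the start site of each window, the first base of GGCGCC lay at position -61 in Fzd1, -162 in Fzd8 and 30 in Fzd10. In Fzd8 that site lies inside the annotated gene. The match occurred both in genes that were higher in Q-NSPC and in one that did not pass the test. The motif is its own reverse complement, so both strands give the same matches. CTTTGA, a TCF family motif, occurred in the Fzd7 window only, and in 16.1% of all windows. The related CTTTGT (18.8% of all windows) and TTGGCA, a nuclear factor I motif (14%), had no match in the 7 windows. The shares over all windows were not matched for GC content, which was higher in these 7 than in most windows. A match here describes letters and not a bound site.

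One Q-NSPC array stood apart from the other Q-NSPC arrays over all genes. On the first principal component over all genes, which held 71.12% of the variance, the A-NSPC arrays lay at -27.52, -25.00 and -28.10, and the Q-NSPC arrays at 5.29, 38.90 and 36.41 for replicates 1, 2 and 3. Replicate 1 therefore lay between the groups, and the Frizzled changes, their pair differences and the counts in each list are given with and without it. That component separates the groups, so replicate 1 was singled out by its smaller change over all genes. Larger changes and smaller p-values without it are therefore no independent support. Over the 2433 genes called different between the groups, the change in replicate 1 had a median of 58.47% of that in replicates 2 and 3. The median of every array lay between 7.53 and 7.57 on the deposited log2 scale.

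Markers of the cell types that such cultures can hold were read in the same fit. Over all genes, limma called 7.91% higher and 6.20% lower at an adjusted p under 0.05. Without replicate 1 these shares were 12.7% and 10.9%, and at an unadjusted p under 0.05 with all arrays 16.2% and 13.3%. Of the dividing-cell markers 5 of 9 measured were lower in Q-NSPC and none was higher, with summed intensities of 26530 to 28370 in A-NSPC and 10400 to 22390 in Q-NSPC, where replicate 1 was the highest and the nearest to A-NSPC. Without replicate 1 all 9 were lower. Of 10 neuronal markers 6 were higher and 1 lower (16340 to 17010 against 25330 to 38340, lowest in replicate 1), and without replicate 1 the counts were 7 and 1. Of 8 astrocyte markers only Gfap, an intermediate filament shared by astrocytes and hippocampal stem cells, was higher (12610 to 13090 against 15020 to 15840 for the list), and 2 of 9 oligodendrocyte markers were lower (8589 to 9212 against 4091 to 8031, highest in replicate 1). Without replicate 1 these lists had 2 astrocyte markers higher and 1 lower, and 5 oligodendrocyte markers lower. Of 10 stem and progenitor markers all were measured, and 2, Pax6 and Msi1, were higher and 0 lower, with 3 lower before adjustment (29170 to 31430 against 24200 to 30560, highest in replicate 1), and without replicate 1 the counts were 2 and 4. No microglial (1204 to 1308 against 1183 to 1288), endothelial (668.0 to 749.3 against 693.3 to 749.6) or mural and fibroblast marker (1198 to 1363 against 1188 to 1367) passed the test, and at an unadjusted p under 0.05 in limma 1 microglial and 1 endothelial marker were lower and 1 mural or fibroblast marker was higher. Without replicate 1, of these 3 lists, 1 endothelial marker was called lower. The part of these shifts in the Frizzled values was not tested, and in bulk RNA fewer cells of a type and less RNA per cell cannot be told apart.

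Across the family, 4 of the 8 measured receptor genes were higher in Q-NSPC and 0 were lower. They were Fzd8, Fzd1, Fzd5 and Fzd2, and the change of Fzd8 was the largest of the 8. The test was a moderated linear model (limma) over all 17245 genes, with Benjamini-Hochberg adjusted p under 0.05, and it called 7.91% of all genes higher (1364) and 6.20% lower (1069). The median log2 fold change of the 8 was 0.44, against 0.01 over all genes. The members were chosen with earlier results of these data known, so these counts are descriptions. Without Q-NSPC replicate 1 the fit called 5 members higher and 1 lower, where 12.7% of all genes were higher and 10.9% lower. Without any one of the other 5 arrays it called only Fzd8, where 419 to 1197 of all genes were called, against 2433 with 6 arrays. With all 6 arrays, at an unadjusted p under 0.05 in limma, 5 members were higher (16.2% of all genes) and 1, Fzd9, was lower (13.3% of all genes, close to 1 of 8). The methods' t-test, unpaired or paired, called 0 members higher and 0 lower after adjustment, which ends all 4 calls. Over all 17245 genes it called 0 unpaired and 1 paired after adjustment, so those counts do not set the members apart from other genes. Before adjustment the unpaired form had 4 members and 2399 of all genes higher, and the paired form 1 member and 1542 of all genes. In either form 0 members were lower before adjustment, against 1842 of all genes unpaired and 1174 paired.

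By the arrays themselves, 5 members had all Q-NSPC values above all A-NSPC values (Fzd1, Fzd2, Fzd4, Fzd5 and Fzd8), as did 18.7% of all genes. In 1 member, Fzd9, all Q-NSPC values lay below, as in 15.3% of all genes. Fzd6 and Fzd10 overlapped between the groups.

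**Figure D1:**
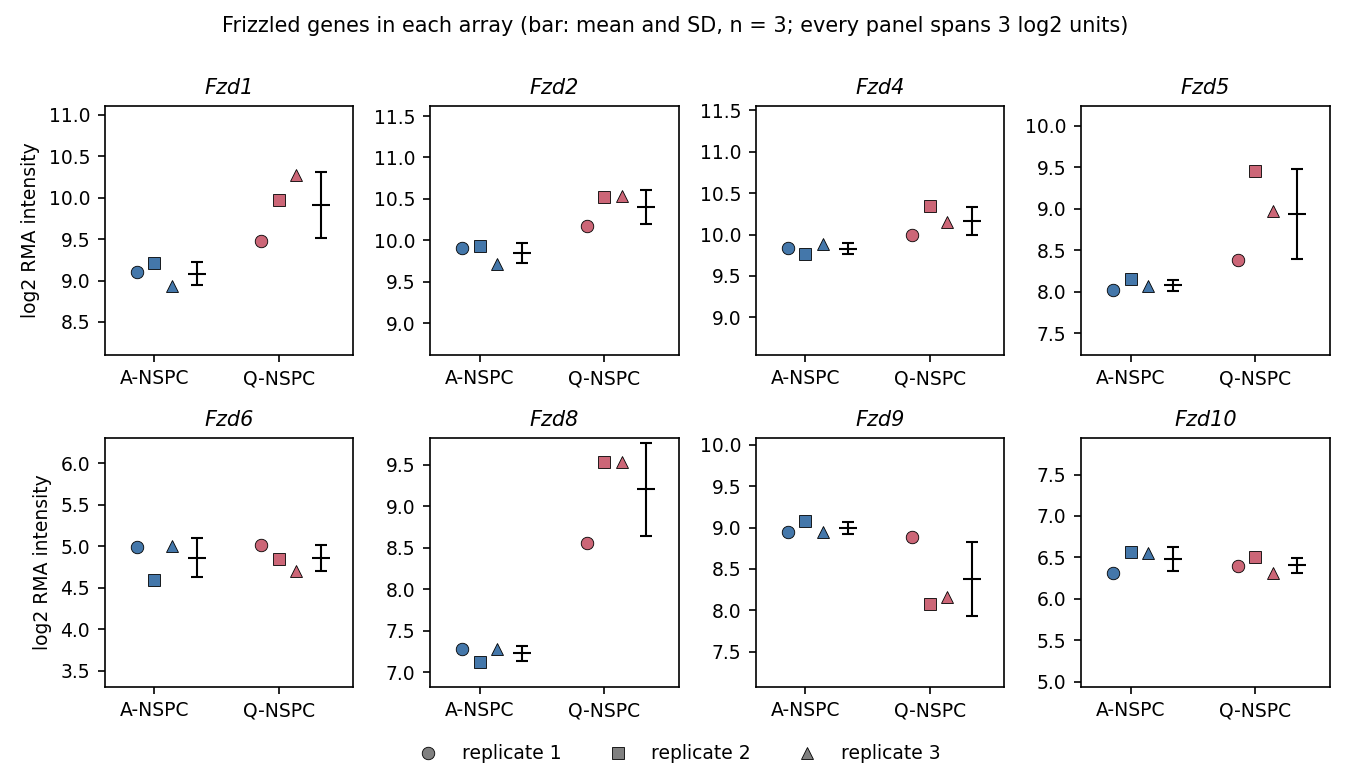
Deposited log2 RMA intensity (vertical axis, 3 log2 units in every panel) of the 8 measured Frizzled genes in each array, by group and replicate, with the mean and SD of 3 arrays as bars. Q-NSPC values lie above all A-NSPC values for Fzd1, Fzd2, Fzd4, Fzd5 and Fzd8, below them for Fzd9, and among them for Fzd6 and Fzd10, and in 6 of the 8 panels Q-NSPC replicate 1 is the Q-NSPC array nearest to the A-NSPC mean.

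Fzd8 encodes a receptor whose ligand-binding domain is widely used as a soluble trap for Wnt proteins. Its log2 intensity was 7.28, 7.12 and 7.28 in the 3 A-NSPC arrays and 8.56, 9.53 and 9.53 in the Q-NSPC arrays. Every Q-NSPC array was more than 1 log2 unit above the highest A-NSPC array, and replicates 2 and 3 were level with each other. The mean rose from 7.23 ± 0.09 to 9.21 ± 0.56 (SD, n = 3), a 3.95-fold higher level in Q-NSPC (log2 fold change 1.98, SE 0.25, limma adjusted p = 0.004794). It ranked 51 of 17245 genes by log2 fold change and 128 by p. It was the only member to pass the threshold whichever array was left out, with log2 fold changes of 1.82 to 2.31 and limma adjusted p of 1.38e-05 to 0.03179.

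Fzd5, the closest relative of Fzd8 and like it a receptor of canonical Wnt signals, showed a smaller and more variable change. Its log2 intensity was 8.02, 8.15 and 8.07 in A-NSPC, and 8.38, 9.46 and 8.98 in Q-NSPC. The A-NSPC arrays were tightly grouped, while the Q-NSPC arrays spread over more than 1 log2 unit, with replicate 1 only slightly above A-NSPC and at 26.43% of the change in replicates 2 and 3. The 1.82-fold higher mean (log2 fold change 0.86, SE 0.24) passed the threshold closely (limma adjusted p = 0.04653). Without Q-NSPC replicate 1 the log2 fold change was 1.14 (adjusted p = 0.001032), and without any one of A-NSPC replicates 1, 2 and 3 or Q-NSPC replicates 2 and 3 the gene did not pass (0.60 as the smallest change, adjusted p = 0.0998 to 0.1462).

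Fzd1 and Fzd2 belong to one subfamily and can each signal through β-catenin. Fzd1 had log2 intensities of 9.10, 9.21 and 8.94 in A-NSPC and 9.48, 9.97 and 10.27 in Q-NSPC. All Q-NSPC arrays were above all A-NSPC arrays, and replicate 1 was the lowest of the 3. The gene rose 1.77-fold (log2 fold change 0.82, SE 0.19, limma adjusted p = 0.02819). Without Q-NSPC replicate 1 the log2 fold change was 1.03 (adjusted p = 0.001036), and without any one of the other 5 arrays the call was lost (adjusted p up to 0.1008).

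Fzd2, which also takes part in signalling by WNT5A outside the canonical branch, had log2 intensities of 9.91, 9.93 and 9.71 in A-NSPC and 10.17, 10.52 and 10.53 in Q-NSPC. The groups did not overlap, and Q-NSPC replicates 2 and 3 were nearly equal. Its 1.47-fold rise (log2 fold change 0.55, SE 0.13, limma adjusted p = 0.02842) was the smallest of the 4 that passed. It was 0.67 without Q-NSPC replicate 1 (adjusted p = 0.003421), and without any one of the other 5 arrays the adjusted p lay between 0.06185 and 0.1125, so that the call was lost.

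Fzd4 is the receptor that binds norrin, a ligand unrelated to Wnt proteins, as well as Wnt ligands. Its log2 intensity was 9.84, 9.76 and 9.89 in A-NSPC and 10.00, 10.34 and 10.15 in Q-NSPC. The arrays did not overlap, but the gap between the highest A-NSPC and the lowest Q-NSPC array was narrow, and the difference did not pass the threshold (log2 fold change 0.33, SE 0.11, limma adjusted p = 0.09037, 95% interval 0.07 to 0.59). Without Q-NSPC replicate 1 it did (0.41, adjusted p = 0.02897).

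Fzd9, known in the mouse from its expression in the developing hippocampus, was the only member with all Q-NSPC arrays below A-NSPC. Its log2 intensity was 8.95, 9.08 and 8.95 in A-NSPC and 8.89, 8.08 and 8.16 in Q-NSPC. Replicate 1 was nearly at the A-NSPC level, at 11.33% of the change in replicates 2 and 3, the smallest share among the 6 members whose groups did not overlap. With all 6 arrays the level was 1.53-fold higher in A-NSPC and did not pass the threshold (log2 fold change -0.61, SE 0.20, limma adjusted p = 0.08034). Without Q-NSPC replicate 1 the gene was called lower (-0.87, adjusted p = 0.0007136).

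Fzd6 and Fzd10 were the members that showed no difference past the threshold under any array left out, and both were among the dimmest 30% of genes. Fzd6, known in the mouse for the patterning of hair by planar cell polarity, had log2 intensities of 4.99, 4.59 and 5.0 in A-NSPC and 5.02, 4.85 and 4.70 in Q-NSPC. The spread within each group exceeded the difference of the means (log2 fold change 0.00, limma 95% interval -0.33 to 0.32, adjusted p = 0.9908), and without Q-NSPC replicate 1 the change was -0.09. Fzd10, found in the embryonic nervous system of vertebrates, had values of 6.31, 6.57 and 6.55 against 6.40, 6.50 and 6.31. Its interval ran from -0.33 to 0.18 around a log2 fold change of -0.07 (limma adjusted p = 0.7401). Without Q-NSPC replicate 1 the change of Fzd10 stayed at -0.07. An intensity change of the size of Fzd1, Fzd5 or Fzd8 lay outside the intervals of Fzd6 and Fzd10. Both genes are dim, so these intervals of array intensity do not bound the change of the transcript.

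**Figure D2:**
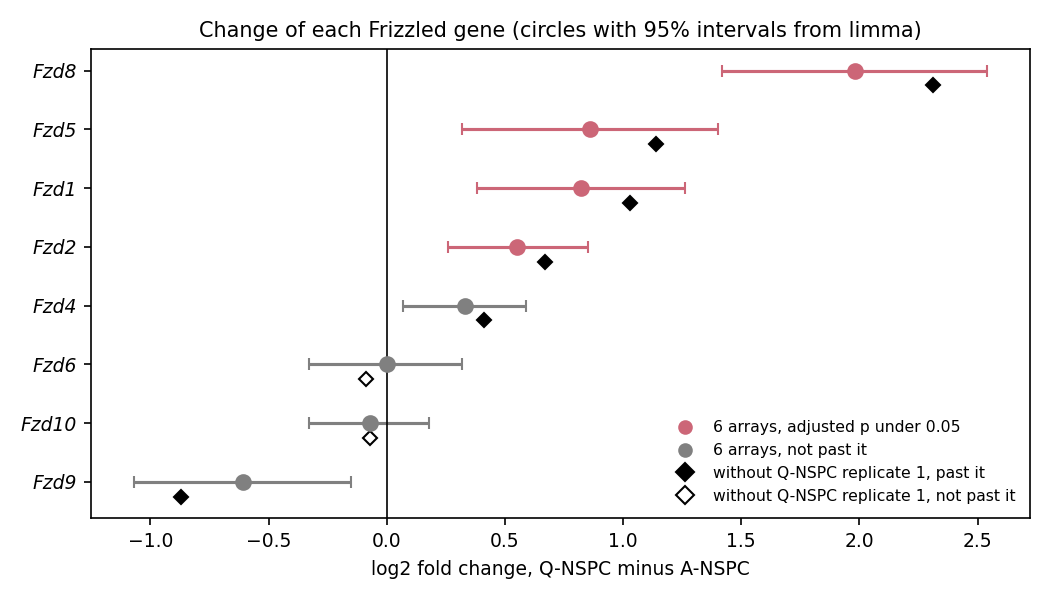
Log2 fold change (horizontal axis, Q-NSPC minus A-NSPC) of each Frizzled gene with its 95% interval from limma over 6 arrays (circles), and the same without Q-NSPC replicate 1 (diamonds). Leaving out that array moves the 6 members whose groups do not overlap further from 0 and brings Fzd4 (0.41) and Fzd9 (-0.87) past the threshold.

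Related receptors were then compared within each array, so that the fixed brightness of a probe set cancels between the groups. Of 8 planned pairs 5 could be formed, since 3 need Fzd3 or Fzd7. With 3 arrays against 3, the exact permutation test over 20 assignments cannot give a two-sided p below 0.1, and no pair could pass 0.05.

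For Fzd5 and Fzd8, the log2 value of Fzd5 minus that of Fzd8 was 0.74, 1.02 and 0.79 on the A-NSPC arrays and -0.17, -0.07 and -0.55 on the Q-NSPC arrays. The probe sets of 2 genes differ in brightness, so only the shift of this value between the groups can be read. The within-array difference moved by -1.12 with no overlap between the groups (exact p = 0.1, adjusted over 5 pairs 0.125), and by -1.16 without Q-NSPC replicate 1. It was the largest shift of the 5 pairs with all arrays, and without that array Fzd4 minus Fzd9 shifted more. Q-NSPC replicate 1 lay between the other 2 Q-NSPC arrays for this difference, although both genes were lowest in it.

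Fzd4 and Fzd9 moved apart by 0.94 log2 units. Their difference was 0.89, 0.69 and 0.94 on the A-NSPC arrays and 1.11, 2.26 and 1.99 on the Q-NSPC arrays (exact p = 0.1, adjusted 0.125), and the shift was 1.28 without Q-NSPC replicate 1. Fzd4 minus Fzd10 rose by 0.40, from 3.53, 3.20 and 3.34 to 3.60, 3.84 and 3.84, and Fzd1 minus Fzd2 rose by 0.27, from -0.81, -0.72 and -0.77 to -0.69, -0.56 and -0.26 (each exact p = 0.1, adjusted 0.125). Neither pair overlapped between the groups, and without Q-NSPC replicate 1 the shifts were 0.48 and 0.36. For Fzd9 minus Fzd10 the groups overlapped (change -0.54, exact p = 0.2, adjusted 0.2), and the shift was -0.80 without Q-NSPC replicate 1.

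**Figure D3:**
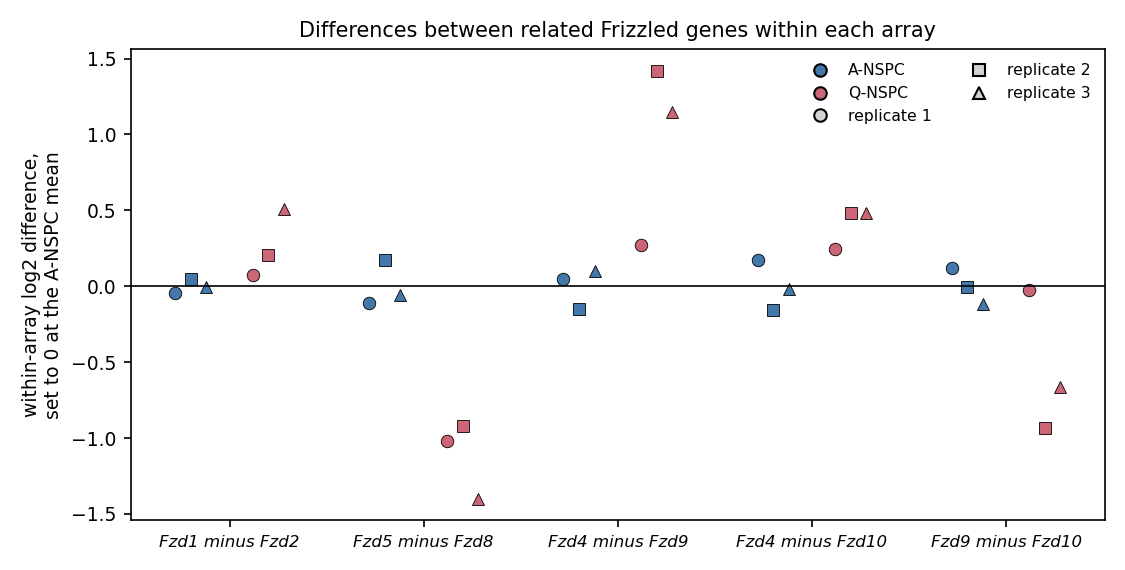
Within-array log2 difference between related Frizzled genes (vertical axis, set to 0 at the A-NSPC mean of each pair) in each array, by group and replicate. Fzd5 minus Fzd8 falls by 1.12 and Fzd4 minus Fzd9 rises by 0.94, while the groups overlap for Fzd9 minus Fzd10.

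The genes whose profile over the 6 arrays lay nearest to each called receptor were listed by the root mean square difference of log2 values, after each gene was set to 0 at its own A-NSPC mean. Genes named only by a locus or clone number were left out of this ranking. For Fzd8 they were Bhlhe22 and Pde4dip, each at 0.06 with a log2 fold change of 1.96, then Sorbs2, Pde9a and Ntm at 0.14. For Fzd1 they were St3gal1 and Cpped1 (0.06), Fam228b and Dmkn (0.07) and Fam110b (0.08). For Fzd2 the nearest was Commd7 at 0.02, followed by Sh3rf1, Chmp1b, Coq8a and Sdc2 up to 0.04. For Fzd5 the nearest, Plekho2, was at 0.09, and Rflnb, Gfra1, Slc25a45 and Cdc14a followed up to 0.11. Plekho2 and Gfra1 did not pass the threshold themselves (limma adjusted p = 0.09753 and 0.0875). No other member of the family was among the 5 nearest genes of any called receptor. The measure keeps the size of a change, so this does not tell whether the receptors change together.

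The receptors were set beside the other genes that act with them at the cell surface, in lists that were also drawn up with earlier results of these data known. The counts of each list stand beside 7.91% of all genes higher and 6.20% lower, and 12.7% and 10.9% without Q-NSPC replicate 1. Of 12 measured co-receptors and other Wnt receptors, 2 were higher and 1 lower, with a median log2 fold change of 0.12, and without Q-NSPC replicate 1 the counts were 3 and 0. The one with the smallest p was Ror1, a receptor tyrosine kinase with a Frizzled-like cysteine-rich domain that binds WNT5A, at 7.88, 7.82 and 7.88 in A-NSPC and 8.88, 9.76 and 9.50 in Q-NSPC. The groups did not overlap (log2 fold change 1.52, limma adjusted p = 0.005559), and the call held whichever array was left out. Lrp5, a canonical co-receptor of the Frizzled proteins, stood at -0.39 on the same scale (adjusted p = 0.04169), a lower level in Q-NSPC, and passed in 0 of the 6 fits that left out 1 array (adjusted p 0.058 without Q-NSPC replicate 1 and up to 0.1338 without others). Lrp6, its partner, named after its values were seen, stood at -0.24 (adjusted p = 0.1584).

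In the set that controls receptor turnover, with the R-spondins and their receptors, 0 of 10 measured genes passed the threshold and the median was 0.12. Before adjustment 2 had a limma p under 0.05, 1 in each direction, where 16.2% of all genes were higher and 13.3% lower. These were Tmem59, a membrane protein that promotes Wnt receptor assemblies, with a change of 0.29 (limma adjusted p = 0.08651), and Lgr5, an R-spondin receptor, with -1.15 (adjusted p = 0.09457). Lgr5 read 9.53, 9.59 and 9.38 in A-NSPC and 9.36, 7.44 and 8.25 in Q-NSPC, where replicate 1 was again near the A-NSPC level, as for Fzd9. Without that array 2 genes of the set were higher and 1, Lgr5, was lower (-1.65, adjusted p = 0.001008).

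Among 12 genes for Dishevelled and its partners, which carry the Frizzled signal inside the cell, 5 were higher and 1 lower, with a median of 0.39, and the counts were the same without Q-NSPC replicate 1. Dact1, a Dishevelled-binding regulator of Wnt signals, rose by 1.47 on the log2 scale (limma adjusted p = 0.003688), and Nkd2, a Dishevelled-binding inhibitor, fell by 0.90 (adjusted p = 0.00331). Both held whichever array was left out, and only 3 genes of the list passed without A-NSPC replicate 1, 2 or 3 or Q-NSPC replicate 2 or 3. Of the Dishevelled genes themselves, named after their values were seen, Dvl1 stood at -0.20, Dvl2 at 0.32 and Dvl3 at 0.37, and none passed.

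Of 12 planar cell polarity genes 3 were higher and 1 lower (median 0.13), and 4 and 1 without Q-NSPC replicate 1. Ankrd6, the mammalian relative of the fly gene diego, had the smallest p and rose by 1.87 (limma adjusted p = 0.0016), and it passed whichever array was left out. Vangl1, a membrane protein of the same system, was lower, at -0.61 (adjusted p = 0.02363), and did not pass without A-NSPC replicate 1 or 3 or Q-NSPC replicate 2 or 3 (adjusted p up to 0.09802).

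The next list held Wnt ligands and Ndp for norrin, together with Wls, the carrier that brings Wnt proteins to the surface, Porcn, which acylates them, and Notum, which removes the acyl group. Of its 22 measured genes 3 were higher and 1 lower, with a median of 0.01, and 4 and 1 without Q-NSPC replicate 1. Over all genes the shares were 7.91% and 6.20%, and 12.7% and 10.9% without that array. The 3 were Wnt10a, Wls and Ndp, so 1 of them is a Wnt ligand. Wnt10a rose by 0.93 (limma adjusted p = 0.00701) and passed whichever array was left out. Wnt7b was lower by -1.45 on the log2 scale (adjusted p = 0.03817), at 9.10, 9.27 and 8.63 in A-NSPC and 8.5, 6.95 and 7.21 in Q-NSPC. Its call was lost without any array but Q-NSPC replicate 1 (adjusted p up to 0.1416), and 2 genes of the list passed without A-NSPC replicate 1 or 3 or Q-NSPC replicate 3. Ndp, the ligand of Fzd4 named after its values were seen, read 7.70, 7.90 and 7.51 against 8.67, 8.16 and 8.68 (log2 fold change 0.80, adjusted p = 0.02067), and did not pass without A-NSPC replicate 1 or 3 or Q-NSPC replicate 3 (adjusted p up to 0.08852).

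The last list held secreted inhibitors, which bind Wnt proteins or their co-receptors, and the membrane proteins Kremen1 and Kremen2, receptors of the Dkk inhibitors. Of its 13 measured genes 3 were higher (Wif1, Dkk2 and Kremen1) and 2 lower (median 0.11), with the same counts without Q-NSPC replicate 1. Wif1, a Wnt-binding protein, rose by 1.11 (limma adjusted p = 0.01528) but did not pass without any one of the A-NSPC arrays (adjusted p up to 0.0662). Sfrp4, a secreted protein with a Frizzled-like cysteine-rich domain, fell by 1.49 (adjusted p = 0.00481) from 9.73, 9.33 and 9.65 to 8.49, 7.91 and 7.86 and passed whichever array was left out. Without A-NSPC replicate 1, 2 or 3 the list held 2 genes past the threshold, both lower, and without Q-NSPC replicate 2 or 3 it held 3.

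**Figure D4:**
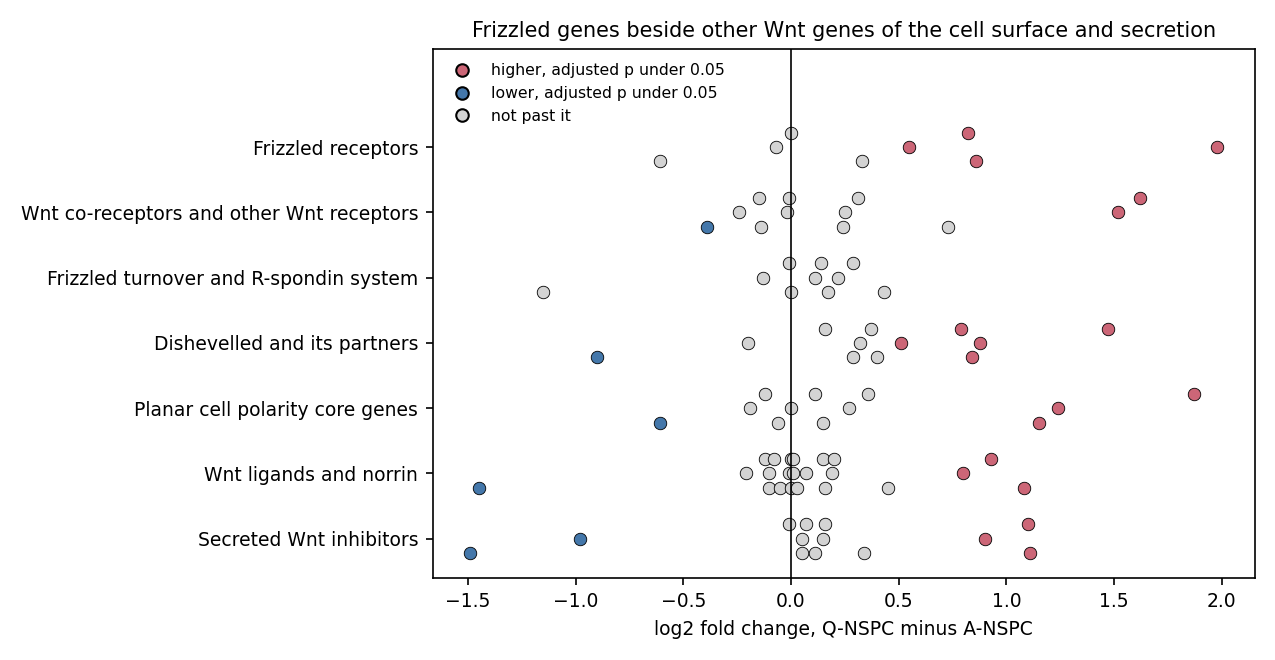
Log2 fold change (horizontal axis, Q-NSPC minus A-NSPC) of each measured gene in the Frizzled family and in 6 other lists of Wnt genes, coloured by whether it passed an adjusted p under 0.05 in limma. The Frizzled list has 4 genes higher and 0 lower, and the turnover and R-spondin list has none past the threshold.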

How the data were processed

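The deposited values were log2 intensities per probe set, made by the authors with RMA (background correction, quantile normalization and probe summary), with Affymetrix Expression Console and Partek 6.10 named in the processing notes; no step was repeated. All 6 arrays were used. Of 29214 probe sets, 18644 carried 1 gene symbol, 962 several and 9608 none; the last 2 kinds were left out. For 879 genes with several probe sets the brightest by mean was kept, giving 17245 genes. Groups came from the sample labels. The main fit was limma 3.58.1 in R 4.3.3 (lmFit and eBayes, two-sided) with Benjamini-Hochberg adjustment over all genes, threshold 0.05, no filter and no block, and was tested on simulated data. Those data had independent normal noise, equal spread in both groups and no array that stood apart. They therefore do not cover an array such as Q-NSPC replicate 1. The limma p-values set the difference of the group means against the spread between cultures, which the fit moderates over all genes. Alternatives left out each array, filtered dim genes, normalized or centred again, weighted arrays, used a replicate block, or applied the methods' t-test. That t-test is named for the study as a whole and not for the array lists. Same-numbered arrays did not deviate together (correlations -0.05, 0.01 and -0.03), so numbers were not taken as pairs. In each other list the gene with the smallest p in each direction was named, or the 2 with the smallest p where none passed, together with the 5 nearest profiles of each called receptor. Marker genes, Wls, Dkk2, Kremen1 and the other genes named outside this rule were chosen after their values were seen. Members and lists were chosen with earlier results of these data known. The number of arrays limits the precision.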

Additional observations from a re-analysis of the deposited data

How the results depend on the processing

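Fzd8 was higher in Q-NSPC under all 16 alternatives (log2 fold change 1.82 to 2.31) and passed the threshold in 14, all but the methods' t-test in its unpaired (adjusted p = 0.1099) and paired form (adjusted p = 0.3051). Its direction was fixed in many of them and is no separate support there. Fzd8 has 1 probe set, its groups do not overlap whichever array is left out, and the block and the t-tests keep the group means. The total of 2433 genes ranged from 419 to 4079 when 1 array was left out, and was 4028 with array weights, 0 with the unpaired and 1 with the paired methods' t-test. At an unadjusted p under 0.05 these t-tests gave 2399 higher and 1842 lower (unpaired) and 1542 and 1174 (paired). Members called higher ranged from 1 to 5 when 1 array was left out and were 0 with the methods' t-test in either form (4 and 1 at an unadjusted p under 0.05). Members called lower ranged from 0 to 1, with 1 also under array weights, where Fzd9 reached -0.74 (adjusted p = 0.01065) and Fzd4 0.36 (adjusted p = 0.03758). Fzd5 missed the threshold after a second quantile normalization (adjusted p = 0.06302) and after median centring (0.05113). Fzd6, at -0.14 to 0.07 when 1 array was left out, changed sign without A-NSPC replicate 1 (0.06) or 3 (0.07), without Q-NSPC replicate 2 (0.00) or 3 (0.07), and after a second quantile normalization (0.01). The cause of these shifts was not tested. Of the co-receptor list 5 genes passed without the dimmest 30% of genes, and 1 to 3 when 1 array was left out. With the replicate block 2043 genes passed, 4 of them members, and no member call changed. The block gave the within-array pairs a sign-flip p of 0.25 each, the smallest that 3 pairs allow. No pair difference changed direction under the alternatives run, but few of these could change it. The block and the mean of probe sets return the main value. In pairs whose groups do not overlap, leaving out 1 array cannot turn the sign.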
